A study of Homo sapiens with 6 samples.

Results

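The glucocorticoid receptor gene NR3C1 is examined together with 9 genes of the glucocorticoid response, in bulk RNA-seq of human colon epithelial cells. The members are 10 gene symbols taken by name from the count files, FKBP5, TSC22D3, PER1, DUSP1, KLF9, ZBTB16, SGK1, HSD11B1 and HSD11B2 beside NR3C1, of 24462 symbols in all, and each of the 10 is listed there. The dataset compares 3 libraries of 1CT, an immortalized human colonic epithelial cell line (HCEC) with wild type APC, with 3 libraries of 1CT-A, the version of this line that the labels describe as an APC knockdown. APC is the tumor suppressor whose loss is an early step of colorectal cancer, and it holds down β-catenin in Wnt signaling. All 6 libraries come from untreated cells in the same medium, DMEM and M199 with 20 ng/ml epidermal growth factor, 10 μg/ml insulin, 5 nM sodium selenite, 2 μg/ml transferrin and 2% FBS. The medium also holds hydrocortisone, which is cortisol, at 1 μg/ml. These are the concentrations of the labels, and the study's methods print milligrams in place of micrograms for hydrocortisone, insulin and transferrin. No library without hydrocortisone is compared here, so the values show the difference between the cell lines in the presence of the hormone and not the response to it. The sources used here do not give how 1CT-A was depleted of APC, whether it is a single clone, or whether the 3 libraries of a line are separate cultures. The p values therefore measure the spread between these libraries, which may be technical.

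Of the 9 members tested, 6 are called higher and 2 lower in 1CT-A, where 25.0% and 26.0% of all tested genes are. The 6 include HSD11B1, which passed the filter on low counts only through 1CT-A, where it is high. The calls of HSD11B1, NR3C1 and PER1 are lost in some fits with a library left out. At an adjusted p under 0.01, 3 members are higher and 2 lower. TSC22D3, KLF9 and FKBP5 are higher in 1CT-A, by 2.20-fold, 1.94-fold and 1.72-fold. SGK1 and DUSP1 are lower, by 2.40-fold and 1.92-fold. The receptor itself and PER1 are higher by only 1.20-fold and 1.24-fold, and ZBTB16 does not pass the test. Of the enzymes that make or remove active cortisol, HSD11B1 has few counts and HSD11B2 is not detectable at this depth.

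Cortisol enters the cell and binds the receptor, which waits in the cytoplasm in a complex with the chaperone HSP90 and its partners. The bound receptor moves to the nucleus, binds DNA at glucocorticoid response elements and recruits coactivators or corepressors. Among the genes it induces are brakes on the hormone signal itself and on inflammatory and growth factor signaling. In the intestinal epithelium, glucocorticoids are known for their effects on maturation, on sodium uptake and on inflammation.

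The libraries hold between 7788679 and 8452258 counts in 1CT and between 11158108 and 12602988 counts in 1CT-A, which are deeper by a factor of 1.43. The limit of detection is set at 3 counts, equal to 0.355 to 0.385 CPM (counts scaled to the library total) in the shallower 1CT libraries and 0.238 to 0.269 CPM in those of 1CT-A, and covers counting error only. APC, the targeted gene, is at 49.3, 43.8 and 46.6 CPM in the 1CT libraries and at 31.5, 30.0 and 34.4 CPM in the 1CT-A libraries. The log2 fold change of APC, with 1CT as the reference here and throughout, is -0.58 (standard error, SE, of 0.09 with edgeR adjusted p = 0.000176), so the labels and the gene have the same direction. Another protein-coding gene on the same strand, with no entry in the files, overlaps the last exon of APC in GENCODE, and reads of the pair cannot be told apart. The counts hold few of the defining markers of an epithelial cell. Of 15 epithelial marker genes, 10 have at most 3 counts in every library, EPCAM among them with 0, and the summed level of the 15 is 13.6 to 18.0 CPM in the 1CT libraries against 3.32 to 7.29 CPM in the 1CT-A libraries. All 12 mesenchymal marker genes are tested, with 3 called higher and 7 lower, where 25.0% and 26.0% of all tested genes are. Their summed level is 45125 to 53163 CPM in the 1CT libraries against 22154 to 23539 CPM in the 1CT-A libraries. FN1 alone makes most of this sum, with means of 44241 and 18128 CPM, and the other 11 sum to 4888 to 5882 CPM against 4415 to 4733 CPM. Of 9 blood and endothelial marker genes, 7 have at most 3 counts in every library, and their 9 levels sum to between 11.0 and 14.6 CPM in 1CT libraries, and 8.57 and 10.2 CPM in 1CT-A libraries. CD68 alone makes most of these sums, with means of 12.1 CPM in 1CT and 9.33 CPM in 1CT-A. The part of these differences in the results below was not tested. In bulk libraries, fewer cells that express a gene and less of its RNA per cell cannot be told apart.

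Since response elements lie in the DNA around these genes, the sequence just before the gene start is shown for 4 of them, chosen as a pair that rises in every refit (TSC22D3 and FKBP5), a gene that falls (DUSP1) and a clock gene (PER1). The sequences are the 250 bases before the start of the RefSeq gene on GRCh38.p14, read 5′ to 3′ on the gene's strand. For NR3C1, TSC22D3 and PER1 this start is not that of the GENCODE gene given below, and the window lies inside the GENCODE span. Other starts of a gene are not covered by these windows. RefSeq gives such a sequence here for 8 of the 10 genes, and ZBTB16 and HSD11B2 are not among them. Capitals mark the E-box CACGTG and the core TGACG of the cAMP response element, on either strand. 
TSC22D3, chrX:107775989-107776238, minus strand: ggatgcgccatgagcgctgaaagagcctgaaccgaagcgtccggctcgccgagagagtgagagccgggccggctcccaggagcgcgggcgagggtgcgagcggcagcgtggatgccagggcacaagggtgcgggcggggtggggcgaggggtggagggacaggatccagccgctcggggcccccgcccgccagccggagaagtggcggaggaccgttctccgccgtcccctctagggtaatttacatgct
FKBP5, chr6:35728584-35728833, minus strand: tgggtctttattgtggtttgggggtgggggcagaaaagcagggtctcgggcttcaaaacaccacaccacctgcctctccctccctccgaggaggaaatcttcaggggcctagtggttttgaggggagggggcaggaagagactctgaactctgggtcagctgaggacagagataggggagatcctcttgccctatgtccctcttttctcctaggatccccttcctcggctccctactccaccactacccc
PER1, chr17:8152405-8152654, minus strand: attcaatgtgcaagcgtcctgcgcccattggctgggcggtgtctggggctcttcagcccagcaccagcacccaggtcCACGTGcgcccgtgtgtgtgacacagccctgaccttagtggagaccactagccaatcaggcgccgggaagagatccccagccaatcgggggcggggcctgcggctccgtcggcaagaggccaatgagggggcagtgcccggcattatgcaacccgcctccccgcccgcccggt
DUSP1, chr5:172771196-172771445, minus strand: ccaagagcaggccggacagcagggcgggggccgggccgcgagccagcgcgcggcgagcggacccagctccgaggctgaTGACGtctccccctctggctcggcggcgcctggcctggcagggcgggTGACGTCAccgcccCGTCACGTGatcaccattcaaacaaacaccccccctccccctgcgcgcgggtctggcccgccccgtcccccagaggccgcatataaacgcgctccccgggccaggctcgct
The receptor's hexamer AGAACA, searched on both strands, is in none of the 8 windows, and 12.4% of the 27305 promoters of the same length hold it. DUSP1 has the complete cAMP response element TGACGTCA from 125 to 118 bases before its start, a motif of 1.77% of all promoters. It also has the core TGACG at 4 places, including both ends of that element, and 21.7% of all promoters hold this core. The last of these cores shares bases with an E-box, which DUSP1 has from 108 to 103 and PER1 has from 173 to 168 bases before the start. An E-box is in 6.49% of all promoters. The GC box GGGCGG is in 4 of the 8 windows (NR3C1, TSC22D3, PER1 and DUSP1) and in 42.3% of all promoters. A match of letters is not evidence of binding, and the receptor also binds far from gene starts, which these windows do not cover.

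NR3C1 encodes the glucocorticoid receptor, a hormone-dependent transcription factor. The gene lies on chromosome 5 from 143277931 to 143435512 in GRCh38, on the minus strand, and has 9 exons in its main transcript. NR3C1 is at 44.5, 50.2 and 41.7 CPM in the 1CT libraries and at 52.6, 54.7 and 60.7 CPM in the 1CT-A libraries. Each 1CT-A library is above each 1CT library, but the nearest values are close. The log2 fold change is 0.26 (SE 0.09 with edgeR adjusted p = 0.0317), with means of 45.5 ± 4.34 CPM and 56.0 ± 4.20 CPM (SD, n = 3). This call is not stable to the choice of libraries. It is lost when 1CT replicate 1, 1CT replicate 3, 1CT-A replicate 2 or 1CT-A replicate 3 is left out, with log2 fold changes of 0.24, 0.22, 0.29 and 0.21 (edgeR adjusted p = 0.0862, 0.0519, 0.0553 and 0.144). With upper quartile normalization the value is 0.21 (edgeR adjusted p = 0.0789).

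FKBP5 is a cochaperone of HSP90 that lowers the hormone affinity of the receptor, and as an induced gene it closes a short feedback loop. It lies on chromosome 6 from 35573585 to 35728583. FKBP5 is at 190 (1610 counts), 201 and 175 CPM in 1CT and at 318, 341 and 343 CPM in 1CT-A. The lines are far apart, with the lowest 1CT-A library well above the highest 1CT library. The means are 189 ± 13.1 CPM and 334 ± 14.1 CPM (SD, n = 3), and the log2 fold change is 0.79 (SE 0.07 with edgeR adjusted p = 1.29e-06). Among the tested genes this is the 92.7th percentile of the log2 fold changes.

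The transcriptional regulators among the members rise, apart from ZBTB16. TSC22D3, also known as GILZ, binds NF-κB and AP-1 and carries part of the anti-inflammatory effect of glucocorticoids. The gene lies on chromosome X from 107713221 to 107777342. TSC22D3 is at 131, 143 and 139 CPM in 1CT and at 289, 336 and 308 CPM in 1CT-A. The lines do not overlap, and the gap between them is wider than the range within either line. Its log2 fold change of 1.14 (SE 0.08 with edgeR adjusted p = 9.30e-08) is at the 96.9th percentile of all tested genes.

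KLF9 is a Krüppel-like factor that binds GC-rich DNA and restrains proliferation in several tissues, and it lies on chromosome 9 from 70384604 to 70414657. KLF9 is at 19.5, 17.0 and 13.9 CPM in 1CT and at 35.9, 33.8 and 31.0 CPM in 1CT-A. The 2 sets of libraries do not overlap, and the spread is wider in 1CT, with a coefficient of variation of 16.9% against 7.33%. KLF9 has a log2 fold change of 0.96 (SE 0.12 with edgeR adjusted p = 3.29e-05).

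PER1 is a repressor of the circadian clock whose gene glucocorticoids switch on directly, and it lies on chromosome 17 from 8140472 to 8156506. PER1 is at 55.3, 62.9 and 66.8 CPM in 1CT and at 78.1, 78.4 and 78.2 CPM in 1CT-A. The 1CT-A libraries are nearly equal, and all are above the 1CT libraries. For PER1 the log2 fold change is 0.31 (SE 0.09 with edgeR adjusted p = 0.0104), and without 1CT replicate 1 it is 0.23 and no longer passes (edgeR adjusted p = 0.054). The time of day at harvest is not given in the sources used here.

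ZBTB16, also known as PLZF, is a zinc finger repressor that is induced strongly by glucocorticoids in several cell types, and it lies on chromosome 11 from 114059041 to 114256765, also with an antisense lncRNA on its last exon. ZBTB16 is at 43.5, 37.1 and 49.4 CPM in 1CT and at 41.0, 32.2 and 36.9 CPM in 1CT-A. The lines overlap, since the highest 1CT-A library is above the lowest 1CT library (p = 0.2 in a two-sided exact permutation test, where 0.1 is the smallest that 3 libraries against 3 allow). The log2 fold change is -0.28 (SE 0.12 with edgeR adjusted p = 0.0753). It passes the test without 1CT replicate 2 or without 1CT-A replicate 1 (log2 fold change -0.38 and -0.37, edgeR adjusted p = 0.0224 and 0.0427), and with upper quartile normalization (-0.33, edgeR adjusted p = 0.0377).

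The 2 signaling enzymes fall. DUSP1 is a phosphatase that switches off the MAP kinases p38, JNK and ERK, and its gene lies on chromosome 5 from 172768096 to 172771195, where an antisense lncRNA overlaps its last exon and cannot be told apart without knowledge of strand. DUSP1 is at 148, 137 and 108 CPM in 1CT and at 59.9, 71.4 and 78.6 CPM in 1CT-A. Both lines vary more here than for FKBP5, with coefficients of variation of 15.9% and 13.5%, but they remain apart. The log2 fold change is -0.94 (SE 0.12 with edgeR adjusted p = 2.27e-05). DUSP1 is also an immediate early gene of growth factor signaling, and epidermal growth factor is in the medium of both lines.

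SGK1 is a kinase that keeps the epithelial sodium channel at the cell surface by restraining the ubiquitin ligase NEDD4L, and its gene lies on chromosome 6 from 134169248 to 134318112. SGK1 has 88, 105 and 102 counts in 1CT and 61, 55 and 65 counts in 1CT-A, whose libraries are deeper. This is 10.4, 12.7 and 13.1 CPM against 5.47, 4.83 and 5.16 CPM. SGK1 is lower in every 1CT-A library, and the lines are far apart. This gives a log2 fold change of -1.26 (SE 0.16 with edgeR adjusted p = 3.00e-05), the lowest among the members.

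The enzymes that convert the hormone are close to the limit of the depth. HSD11B1 regenerates active cortisol from cortisone, and its gene lies on chromosome 1 from 209686178 to 209734949. HSD11B1 has 8, 1 and 10 counts in 1CT and 17, 33 and 27 counts in 1CT-A, or 0.946, 0.121 and 1.28 CPM against 1.52, 2.90 and 2.14 CPM. It passes the filter on low counts only through its 1CT-A libraries, where it is high. As fitted, the log2 fold change is 1.44 (SE 0.49 with edgeR adjusted p = 0.026). Without 1CT replicate 2, the library with 1 count, it is 0.93 (edgeR adjusted p = 0.0882), and without 1CT-A replicate 2 or replicate 3 it is 1.20 and 1.46 (edgeR adjusted p = 0.0996 and 0.0555). HSD11B2 inactivates cortisol to cortisone and protects the mineralocorticoid receptor in the colon, and its gene lies on chromosome 16 from 67430652 to 67437553. It has 1, 1 and 0 counts in 1CT and 0, 1 and 0 counts in 1CT-A, which is below the limit of 3 counts in every library, so no fold change is given.

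**Figure D1:**
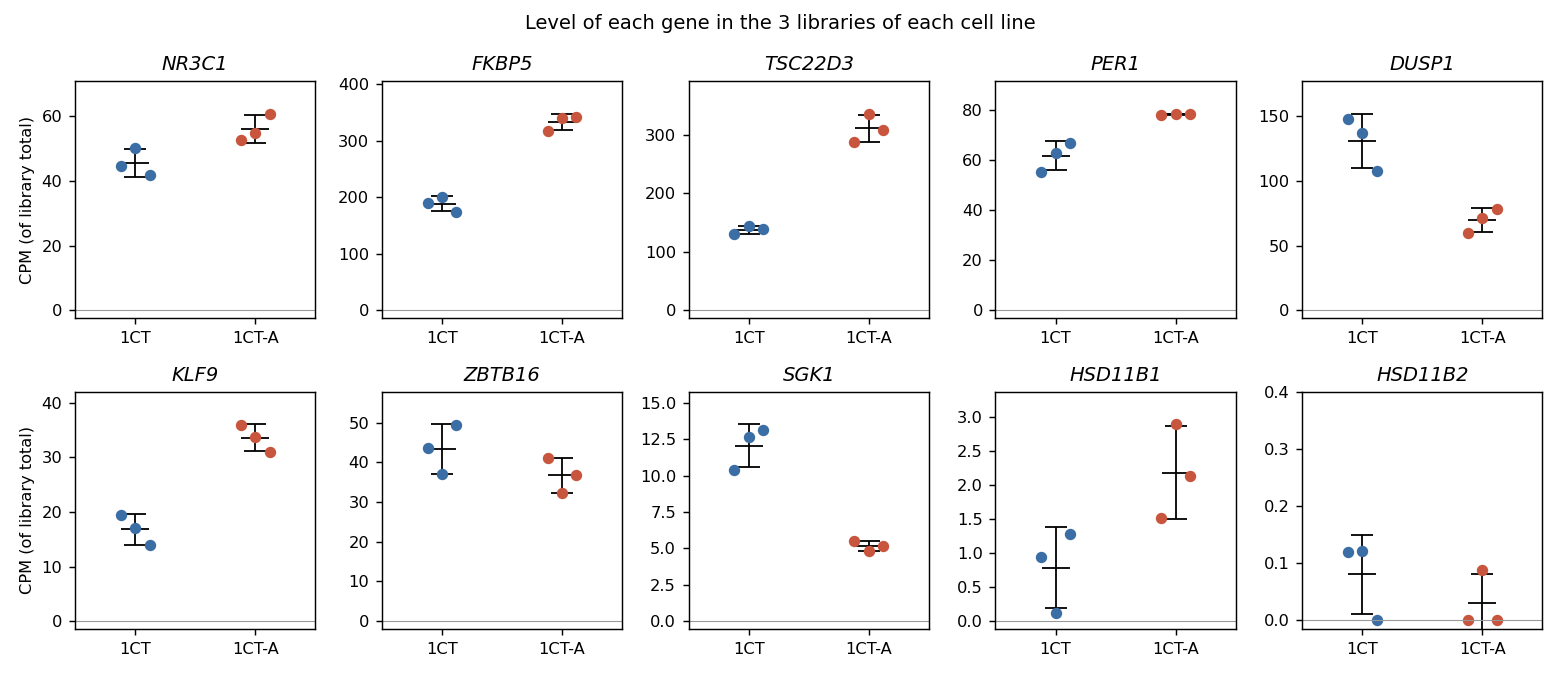
Level of each of the 10 genes in CPM of the library total (vertical axis, linear, a scale of its own for each gene) for 1CT and 1CT-A, with 1 point for each of the 3 libraries and the mean with its SD as a line. The points of the lines are apart for 8 genes and overlap for ZBTB16, and HSD11B2 stays at or below 1 count, 0.121 CPM at most.

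Of the 9 members with enough counts for the test, 6 rise and 2 fall at an edgeR adjusted p under 0.05. Over all 12514 genes tested, 25.0% are called higher and 26.0% are called lower, which together is 51.0%. The groups do not overlap for 8 of the 9, 6 of them higher and 2 lower, where 59.7% of all tested genes have no overlap, 31.8% being higher and 27.9% lower. The median log2 fold change is 0.31 over the 9 members and -0.01 over all tested genes, and HSD11B1 entered only through the group where it is high. Under the thresholds that the study used, a change of 2-fold or more with p below 0.01 before adjustment, TSC22D3 is the only member called higher (3.80% of all genes are) and SGK1 the only one called lower (9.60% of all genes are).

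**Figure D2:**
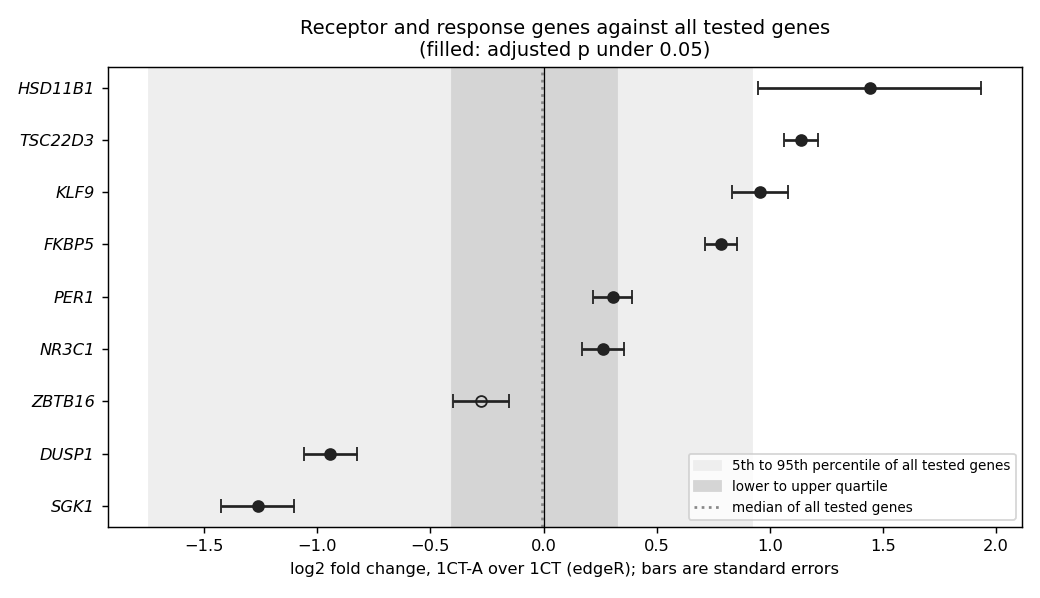
Log2 fold change of 1CT-A over 1CT (horizontal axis) for the 9 tested genes, with standard errors as bars, over the range of all 12514 tested genes in grey. HSD11B1, TSC22D3 and KLF9 lie beyond the pale grey range from the 5th to the 95th percentile, at 1.44, 1.14 and 0.96, while PER1 and NR3C1, at 0.31 and 0.26, lie within the darker range from the lower to the upper quartile.

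In order of their log2 fold changes HSD11B1, TSC22D3, KLF9 and FKBP5 are the highest. Within these, neighbors differ by less than 2 combined standard errors, for example TSC22D3 from KLF9 by 0.18 (combined standard error 0.15) and KLF9 from FKBP5 by 0.17 (combined standard error 0.14). FKBP5 is 0.48 above PER1 (combined standard error 0.11), and PER1 and NR3C1 differ by 0.04 (combined standard error 0.13). NR3C1 is 0.54 above ZBTB16 (combined standard error 0.15) and ZBTB16 is 0.67 above DUSP1 (combined standard error 0.17). DUSP1 and SGK1 differ by 0.32, with a combined standard error of 0.20.

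Ratios of counts within a library do not depend on how libraries are scaled to each other. The ratio of TSC22D3 to DUSP1 counts is 0.882, 1.05 and 1.29 in the 1CT libraries and 4.82, 4.71 and 3.93 in the 1CT-A libraries. The lines do not overlap in this ratio. That follows from the levels above, since the ratio compares a gene higher in every 1CT-A library with a gene lower in every one. FKBP5 counts per NR3C1 count are 4.28, 3.99 and 4.18 in 1CT and 6.04, 6.24 and 5.64 in 1CT-A, and TSC22D3 counts per NR3C1 count are 3.04 ± 0.26 and 5.57 ± 0.54 (SD, n = 3). Relative to the mRNA of the receptor, FKBP5 and TSC22D3 are higher in every 1CT-A library than in any 1CT library. PER1 counts per NR3C1 count overlap between the lines, with 1.36 ± 0.20 in 1CT and 1.40 ± 0.10 in 1CT-A (SD, n = 3).

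**Figure D3:**
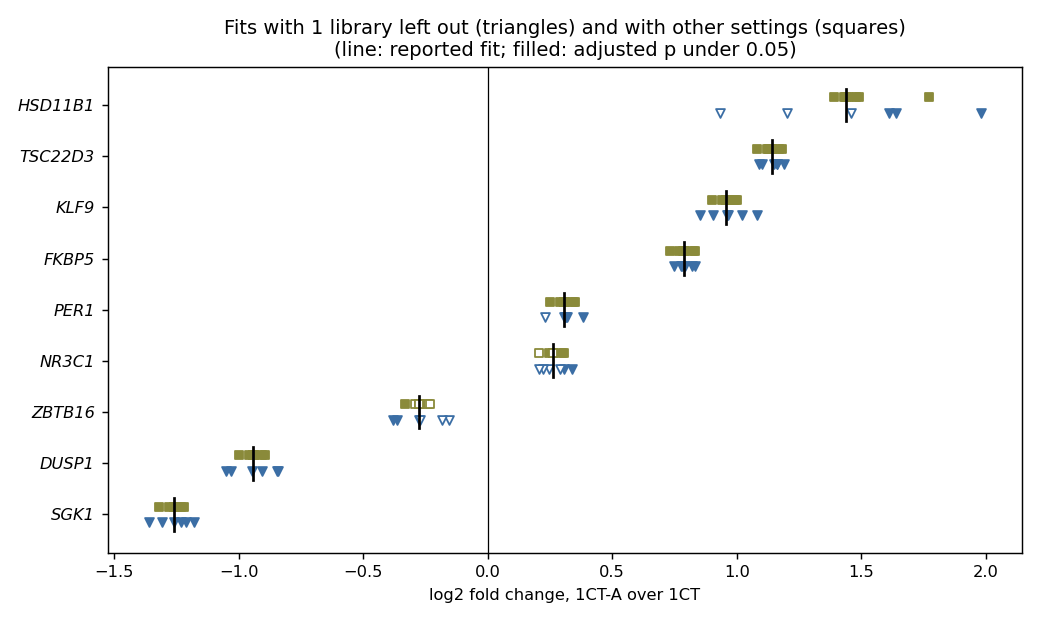
Log2 fold change of 1CT-A over 1CT (horizontal axis) for the 9 tested genes in refits with 1 library left out (triangles) and under other settings (squares), with the reported value as a line, filled where the adjusted p is under 0.05. No point crosses 0, and open points are seen for HSD11B1, PER1, NR3C1 and ZBTB16.

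The genes whose pattern over the 6 libraries is most like that of NR3C1 are KCTD12, ACAT1 and SRSF4, with a Pearson correlation of log2(CPM + 1) of 0.997, 0.992 and 0.991, the highest of 8223 genes compared. With 6 libraries in 2 groups, which also differ in depth, this is a description only. Among the members the correlation with NR3C1 is 0.902 for FKBP5, 0.848 for TSC22D3, 0.809 for KLF9 and 0.734 for PER1, and -0.628 for DUSP1 and -0.799 for ZBTB16.

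The first list is the chaperone complex that holds the receptor ready for the hormone. Of 17 genes, all tested, 10 rise, 1 falls and 6 do not pass, with a median log2 fold change of 0.33. Over all tested genes 25.0% rise, 26.0% fall and the median is -0.01, and the counts of this list and of those that follow are to be read beside these values. PTGES3, the p23 cochaperone that stabilizes the complex with HSP90, rises from 326 ± 22.3 CPM to 540 ± 2.55 CPM (SD, n = 3, log2 fold change 0.69, standard error 0.07, edgeR adjusted p = 2.37e-06). FKBP4, the counterpart of FKBP5 that favors transport of the receptor to the nucleus, rises from 40.2 ± 5.58 CPM to 63.0 ± 3.96 CPM (SD, n = 3, log2 fold change 0.61, standard error 0.11, edgeR adjusted p = 0.000401). BAG1, a cochaperone of HSP70, rises by 0.52 on the log2 scale (standard error 0.10). CDC37, the cochaperone that brings kinases to HSP90, is the gene that falls (log2 fold change -0.26, standard error 0.07, edgeR adjusted p = 0.00822).

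Among the coregulators that the receptor recruits, 8 of 18 genes rise, 3 fall and 7 do not pass, all tested, with a median log2 fold change of 0.17. NCOA3, a steroid receptor coactivator, falls, with a log2 fold change of -0.46 (SE 0.11 with edgeR adjusted p = 0.00302). EP300, a histone acetyltransferase, has a log2 fold change of -0.34 (SE 0.12 with edgeR adjusted p = 0.0292), and its call is lost when any of 4 libraries is left out. These are 1CT replicates 1 and 2 and 1CT-A replicates 2 and 3, with log2 fold changes from -0.34 to -0.27 and adjusted p values of 0.0927, 0.0696, 0.12 and 0.0781 in edgeR. It is also lost without a filter on low counts (edgeR adjusted p = 0.07) and in DESeq2 (adjusted p = 0.068). CBX3, a heterochromatin protein, HDAC2, a histone deacetylase, and MED14, a Mediator subunit that binds the receptor, rise by 0.66, 0.55 and 0.51 on the log2 scale (standard errors 0.07, 0.11 and 0.13).

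Of the related steroid receptors, 4 are given here, and all are near the limit of the depth. NR3C2, the mineralocorticoid receptor that cortisol also binds, has 3, 1 and 0 counts in 1CT and 0, 0 and 3 counts in 1CT-A. PGR and ESR1 also have at most 3 counts in every library, and ESR2 has at most 1 count except for 8 counts in 1CT-A replicate 3. NR3C1 is thus the only receptor of a corticosteroid with more than 3 counts in a library.

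Among 25 genes of corticosteroid metabolism and transport, 14 have at most 3 counts in every library, among them CYP11B1 and CYP11B2, which carry out the last steps of corticosteroid synthesis. Of the 9 tested, 5 rise, 3 fall and 1 does not pass, with a median log2 fold change of 0.35. Among those that rise is AKR1C4, with 0, 2 and 1 counts in 1CT and 29, 34 and 35 counts in 1CT-A. It passes the filter on low counts only through its 1CT-A libraries, where it is high. H6PD, which supplies the NADPH that HSD11B1 uses, falls from 35.4 ± 5.62 CPM to 22.4 ± 2.80 CPM (SD, n = 3, log2 fold change -0.70, standard error 0.13, edgeR adjusted p = 0.000705). H6PD and HSD11B1 therefore differ in opposite directions, with the reservation on HSD11B1 given above. AKR1C1, AKR1C2 and AKR1C3, reductases of steroids, rise by 3.94, 3.14 and 1.76 on the log2 scale (standard errors 0.11, 0.11 and 0.16). Since these genes are close copies, reads could have been divided between them in counting, and their single values are uncertain.

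A longer list holds 48 other genes that glucocorticoids induce in various tissues. Of these, 34 are tested, 9 have at most 3 counts in every library and 5 are under the filter. In 1CT-A 11 rise, 13 fall and 10 do not pass, where 25.0% of all tested genes rise and 26.0% fall, with a median log2 fold change of -0.10. IRS2, an adaptor of the insulin receptor, is at 180, 248 and 176 CPM in 1CT and at 519, 465 and 515 CPM in 1CT-A (log2 fold change 1.27, standard error 0.11, edgeR adjusted p = 1.03e-06). CEBPD, a transcription factor of the acute phase response, and CRISPLD2, a secreted protein, rise by 1.15 and 1.14 on the log2 scale (standard errors 0.11 and 0.07). These values are near that of TSC22D3. In the other direction, ANGPTL4, a secreted inhibitor of lipoprotein lipase, is at 1397, 1228 and 1480 CPM in 1CT and at 232, 234 and 234 CPM in 1CT-A, 6.02-fold lower (log2 fold change -2.59, standard error 0.08, edgeR adjusted p = 1.24e-10). CITED2, a transcriptional coregulator, has a log2 fold change of -1.10 (standard error 0.14).

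Of 24 inflammatory genes that glucocorticoids are known to hold down, 13 are tested, 8 have at most 3 counts in every library and 3 are under the filter. In 1CT-A 5 rise, 4 fall and 4 do not pass, and the median log2 fold change is -0.07. VCAM1, an adhesion molecule for leukocytes, falls from 38.4 ± 4.89 CPM to 2.61 ± 0.56 CPM (SD, n = 3, log2 fold change -3.92, standard error 0.17, edgeR adjusted p = 2.09e-09). CCL2, a chemokine for monocytes, falls, with a log2 fold change of -1.15 (standard error 0.13). CXCL1, a chemokine for neutrophils, rises from 13.7 ± 3.51 CPM to 25.9 ± 5.02 CPM (SD, n = 3, log2 fold change 0.87, standard error 0.18, edgeR adjusted p = 0.00134). PLAT, the tissue plasminogen activator, rises by 0.66 on the log2 scale (standard error 0.10).

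**Figure D4:**
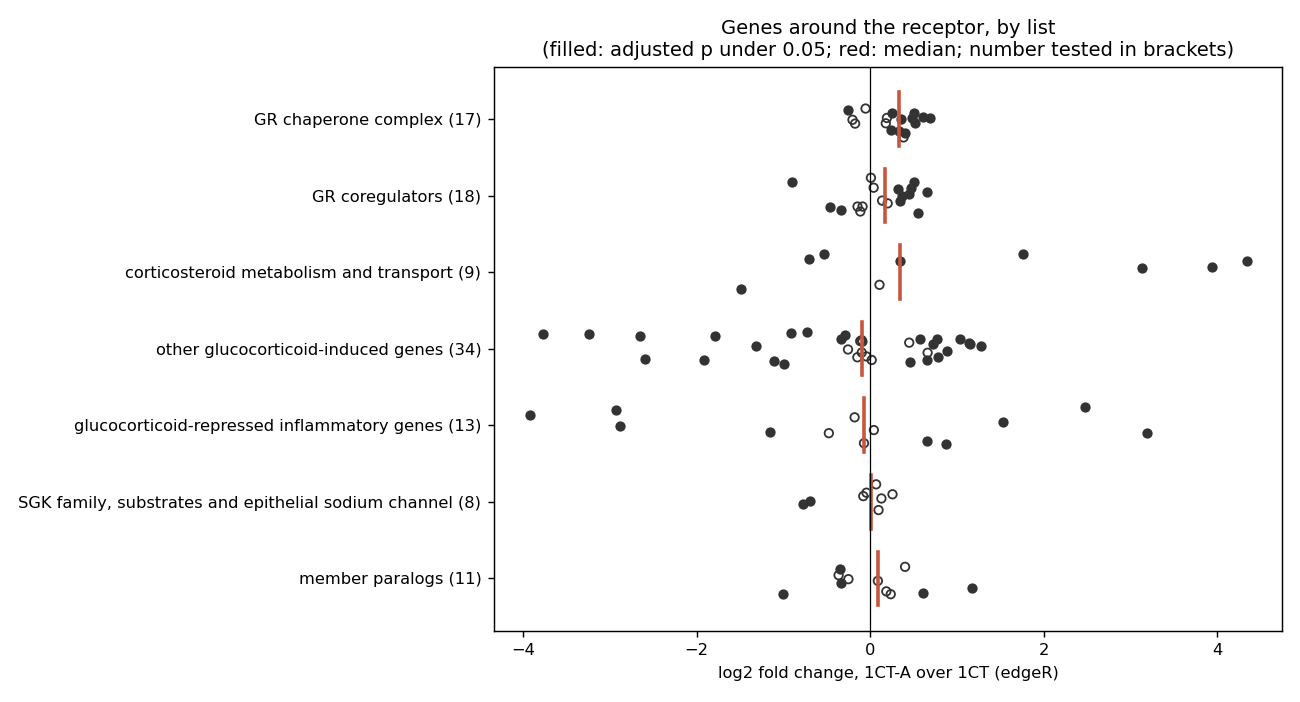
Log2 fold change of 1CT-A over 1CT (horizontal axis) for the tested genes of 7 lists, with 1 point per gene, filled where the adjusted p is under 0.05, and the median of each list as a red line. Chaperone genes gather to the right of 0 with a median of 0.33, while the other glucocorticoid-induced genes and the inflammatory genes spread to both sides around medians of -0.10 and -0.07.

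Of 13 genes for the SGK family, its substrates, its activators and the epithelial sodium channel, 8 are tested, 2 fall, 0 rise and 6 do not pass in edgeR's test, and DESeq2 and limma-voom also call 0 higher. At an unadjusted p under 0.05, 1 is higher. SGK3, a close relative of SGK1, falls from 23.9 ± 1.44 CPM to 15.2 ± 2.04 CPM (SD, n = 3, log2 fold change -0.69, standard error 0.12, edgeR adjusted p = 0.000441). NEDD4L falls from 16.8 ± 0.81 CPM to 10.1 ± 0.51 CPM (SD, n = 3, log2 fold change -0.78, standard error 0.13, edgeR adjusted p = 0.00022). The channel itself is hardly counted. SCNN1B has no count in any library, SCNN1G has at most 3 and SCNN1A at most 5 counts.

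Of 13 relatives of the members, 11 are tested, 2 rise, 3 fall and 6 do not pass. PER2, the clock repressor beside PER1, rises from 2.15 ± 0.69 CPM to 5.05 ± 0.94 CPM (SD, n = 3, log2 fold change 1.18, standard error 0.27, edgeR adjusted p = 0.00295), and PER3 has a log2 fold change of 0.40 (SE 0.22 with edgeR adjusted p = 0.148). DUSP5, a nuclear ERK phosphatase, falls with DUSP1, from 118 ± 7.36 CPM to 60.2 ± 2.72 CPM (SD, n = 3, log2 fold change -1.004, standard error 0.08, edgeR adjusted p = 4.25e-07). The ERK phosphatases DUSP4 and DUSP6 have log2 fold changes of -0.36 and 0.09 (standard errors 0.16 and 0.12) and do not pass. Beside TSC22D3, the relatives TSC22D1 and TSC22D2 do not pass (-0.25 and 0.19 on the log2 scale, standard errors 0.14 and 0.11). TSC22D4 has a log2 fold change of -0.35 (SE 0.11 with edgeR adjusted p = 0.0215). Its lines overlap, and its call is lost without 1CT replicate 1, 1CT replicate 2, 1CT-A replicate 1 or 1CT-A replicate 2, with log2 fold changes from -0.30 to -0.28. KLF13, a close relative of KLF9, has a log2 fold change of 0.24 (SE 0.18 with edgeR adjusted p = 0.28). FKBP1A, a small immunophilin, falls, with a log2 fold change of -0.33 (SE 0.06 with edgeR adjusted p = 0.000697), opposite to FKBP5 and FKBP4. DUSP2 and ZBTB32 are under the filter, with at most 13 and 5 counts in a library.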

How the data were processed

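Bulk RNA-seq of 3 libraries of 1CT and 3 of 1CT-A is analysed. According to the labels, QuantSeq 3′ libraries are made from 500 ng of total RNA, so that reads lie near the 3′ end of transcripts. The study's methods name another extraction kit and a microarray step for the same lines, while the deposited values are sequencing counts. The authors deposited raw counts per gene symbol for each library, without normalization or pooling. The submitters' processing notes name Bowtie2, edgeR and hg19 without their roles. The counting tool, the annotation and the use of strand are not given in the sources used here, so overlapping genes are uncertain. Gene positions are those of GENCODE release 44 on GRCh38 and describe that annotation, not the authors' counting. In it, an antisense lncRNA with no entry in the files overlaps the last exon of DUSP1 and another that of ZBTB16, and a protein-coding gene on the same strand overlaps that of APC.

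Counts of the 286 symbols entered repeatedly are summed, and no member is among them. Levels are CPM of each library's total as mean and SD. Libraries are scaled by TMM, with factors between 0.976 and 1.02. Low genes are removed by filterByExpr (minimum count 10), leaving 12514. A gene can pass this filter through the libraries of a single line. The lines are compared by the quasi-likelihood test of edgeR 4.0.16 (R 4.3.3), with no block, and p values are adjusted by Benjamini-Hochberg over these genes. Genes are called at an adjusted p under 0.05, and the standard error is the size of the log2 fold change divided by the square root of the F statistic. The script is tested on simulated data. Replicates differ by more than counting noise (chi-square per degree of freedom from 3.11 to 9.00). Alternatives are other normalizations and filters, DESeq2 1.42.0, limma-voom (limma 3.58.1), a replicate block, other thresholds, the entry with the most counts of a repeated symbol, and each library left out in turn.

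The members and the lists of related genes were chosen with earlier results of these data known. Named from each list are up to 3 of the largest rises and up to 3 of the largest falls that are called, do not overlap between the lines and reach 10 CPM on average. Steroid receptors and relatives of the members are also named. Some genes that this rule selects are not reported here, although they remain in the counts of their lists. Genes named outside this rule are given for their role or their counts.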

Additional observations from a re-analysis of the deposited data

How the results depend on the processing

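None of the 9 tested members changes direction under any alternative run, and FKBP5, TSC22D3, DUSP1, KLF9 and SGK1 pass in every refit with another normalization, filter or tool and with any library left out. Scaling by library size alone and by the upper quartile shifts the median of all genes by 0.0378 and -0.0565 on the log2 scale, and turns the 3131 genes called higher and 3257 called lower into 3441 and 3014, and 2681 and 3661. At an adjusted p under 0.01, 3 members are higher, and the shares of all tested genes given above are for 0.05 and do not apply to this count. With a change of 2-fold or more and p under 0.01 before adjustment, 1 member is higher and 1 is lower, and APC, at -0.582, is no longer called. That rule leaves 12 higher and 14 lower over all lists of related genes, with 0 and 0 in the chaperone complex and 0 and 0 among the coregulators (which pass edgeR's adjusted p under 0.05 as given above), 1 lower in corticosteroid metabolism, 4 higher and 8 lower among other induced genes, 3 higher among inflammatory genes, 0 lower around SGK1, and 1 higher and 1 lower among relatives. The chaperone complex has 2 falling genes by the upper quartile and 2 with at least 10 counts in every library, where 3 inflammatory genes rise. Around SGK1, 1 gene rises by library size alone and 1 without a filter. With a library left out, 1 to 3 chaperone genes fall (3 without 1CT replicate 2) and 0 to 2 genes around SGK1 rise (2 without 1CT replicate 3 and 1 without 1CT-A replicate 2). DUSP6, which is not called, has a log2 fold change from -0.0305 to 0.255 with a library left out. Except where a rule is stricter by construction, the cause was not tested.

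The replicate numbers are not treated as pairs in the reported fit. The deviations of libraries with the same number correlate at -0.161, 0.22 and -0.139 over 8224 genes, and only the number 2 correlates best with itself. With 3 libraries in each line, such correlations cannot show whether the libraries were handled in pairs. With the replicate number as a block, 5 members are higher and 3 lower, with NR3C1 at 0.262 (edgeR adjusted p = 0.0508) and ZBTB16 at -0.276 (edgeR adjusted p = 0.0461), and 2993 and 3098 genes are called over all. The depth limits HSD11B1 and HSD11B2 most.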

Other observations

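Some further genes of the lists are given here, chosen after their values were seen. Among genes that glucocorticoids induce, FOXO1, a transcription factor restrained by insulin signaling, falls from 7.33 ± 0.87 CPM to 0.53 ± 0.30 CPM (SD, n = 3, log2 fold change -3.77, standard error 0.33). FOXO1 has 2, 8 and 9 counts in 1CT-A and passes the filter on low counts only through its 1CT libraries, where it is high. TNFAIP3, the brake on NF-κB also called A20, falls from 10.8 ± 0.96 CPM to 1.16 ± 0.19 CPM (SD, n = 3, log2 fold change -3.24, standard error 0.22), and BIRC3, an inhibitor of apoptosis, falls, with a log2 fold change of -2.65 (standard error 0.31). TNFAIP3 and BIRC3 also pass the filter on low counts only through their 1CT libraries, where they are high. RASD1, a small GTPase first known as induced by dexamethasone, has 8, 11 and 8 counts in 1CT and 2, 1 and 3 counts in 1CT-A. It is under the filter. Its mean level in 1CT is 4.29 times the mean limit of 3 counts in 1CT-A, with the counting error in 1CT not included. RGS2, a regulator of G protein signaling, rises from 14.1 ± 2.12 CPM to 26.7 ± 0.60 CPM (SD, n = 3, log2 fold change 0.89, standard error 0.12).

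Among the inflammatory genes, chemokines for neutrophils differ in size and direction. CXCL3 rises from 1.83 ± 0.16 CPM to 17.3 ± 1.56 CPM (SD, n = 3, log2 fold change 3.19, standard error 0.18) and CXCL2 rises from 1.06 ± 0.23 CPM to 6.11 ± 1.11 CPM (SD, n = 3, log2 fold change 2.48, standard error 0.28). CXCL2 passes the filter on low counts only through its 1CT-A libraries, where it is high. CXCL8, also a chemokine for neutrophils, has a log2 fold change of -0.47 (standard error 0.39) and does not pass. CXCL1, CXCL2 and CXCL3 are close copies, so their single values are uncertain. CCL20 and ICAM1 fall, with log2 fold changes of -2.93 and -2.88 (standard errors 0.35 and 0.52), both with few counts. CCL20 has 75, 82 and 33 counts in 1CT and 16, 10 and 10 counts in 1CT-A. ICAM1 has 18, 23 and 21 counts in 1CT and 9, 2 and 1 counts in 1CT-A, where it is near the limit of 3 counts. CCL20 and ICAM1 pass the filter on low counts only through their 1CT libraries, where they are high.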
